A study of Mus musculus with 6 samples.

Results

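Genes of the blood vessels of the cortex were examined as a group of 45: markers of endothelial cells, transporters of the blood-brain barrier, and markers of the pericytes and smooth muscle cells (mural cells) around the vessels. Members were the features of the deposited table that carry 1 of these 45 gene symbols, and 44 were found among 59484 features, of which 23505 carry a symbol. *Aplnr* has no feature of that name. Of the 44, 43 had a mean of at least 10 normalized counts over the 6 libraries and were tested, and *Slco1a4* did not. A normalized count is a read number scaled by the size factor of the library.

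PolyA+ RNA was sequenced from the cortex of C57BL/6 mice at embryonic day 18.5 (E18.5), from 3 wild-type samples and from 3 samples of Sam68:Slm2 double knockout (dKO) embryos, with no treatment in either group. The knockouts affect the whole embryo and not a chosen cell type, and the cross that gives dKO embryos (parents lacking SLM2 with 1 intact copy of *Sam68*) yields no wild-type littermates. Whether a library holds 1 embryo or several is not given in the sources used here, so *P*-values measure the spread between these samples. The comparison asks which genes change when both RNA binding proteins are absent. Libraries held between 31837922 and 40896541 reads on the listed features. *Khdrbs1*, the gene of Sam68, had 8213 ± 232 normalized counts in wild-type libraries against 152 ± 41.5 in dKO libraries, and *Khdrbs3*, the gene of SLM2, had 13841 ± 1252 and 6652 ± 366 (SD, n = 3 each). The dKO mean of *Khdrbs3* was thus 48.1% of the wild-type mean.

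Vessels grow into the embryonic cortex from its surface under the guidance of VEGF, which is released by neural cells and sensed by receptor tyrosine kinases on endothelial cells. The endothelial cells of the brain then seal their junctions, suppress vesicular transport and load their membranes with nutrient carriers and efflux pumps, a program that needs Wnt ligands from neural cells and close contact with pericytes. Pericytes are recruited by PDGF-B from the endothelium, which acts on the PDGF receptor beta on their surface. In RNA from whole cortex, fewer vascular cells and less RNA of a gene per vascular cell cannot be told apart.

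The labelled tissue was checked first. The cortical genes *Emx1*, *Neurod2*, *Neurod6*, *Tbr1* and *Bcl11b* were all measured, with *Neurod6* at 52388 ± 12010 normalized counts in wild-type cortex. The 6 endothelial markers used as defining (*Cldn5*, *Pecam1*, *Cdh5*, *Kdr*, *Tie1* and *Erg*) and the 6 mural ones (*Pdgfrb*, *Rgs5*, *Kcnj8*, *Abcc9*, *Acta2* and *Tagln*) were above the minimum. *Ttr*, *Folr1* and *Kl*, which define the choroid plexus, stayed at or below 14.03 normalized counts in every library.

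Vascular genes were mostly somewhat lower in dKO cortex, and no single one passed the adjusted threshold. Of the 43 tested, 38 (88.4%) had a log2 fold change below 0, where 49.4% of all 18970 features tested did, and the median log2 fold change was -0.18 against 0.00 over all features. With limma on log2(normalized count + 1) and Benjamini-Hochberg adjustment over all features, 0 of the 43 passed at 0.05, and their smallest adjusted *P*-value was 0.305. Of all features 0.1% passed, 0.0527% higher and 0.0474% lower in dKO cortex. Without adjustment, 7 genes (16.3%) had a *P*-value under 0.05, all lower in dKO cortex (*Flt1*, *Rgs5*, *Pdgfb*, *Kdr*, *Eng*, *Itm2a* and *Robo4*), where 6.58% of all features were lower and 4.92% higher by that rule. In 6 members (14.0%) every dKO library lay below every wild-type library (*Rgs5*, *Pdgfb*, *Flt4*, *Anpep*, *Esam* and *Pecam1*), where 8.48% of all features did, and in 0 members every dKO library lay above, where 7.89% did. edgeR on the recovered reads also gave 0 adjusted and 7 unadjusted calls. DESeq2 gave 1 adjusted call, *Flt1*, where 1.07% of all features were called.

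**Figure D1:**
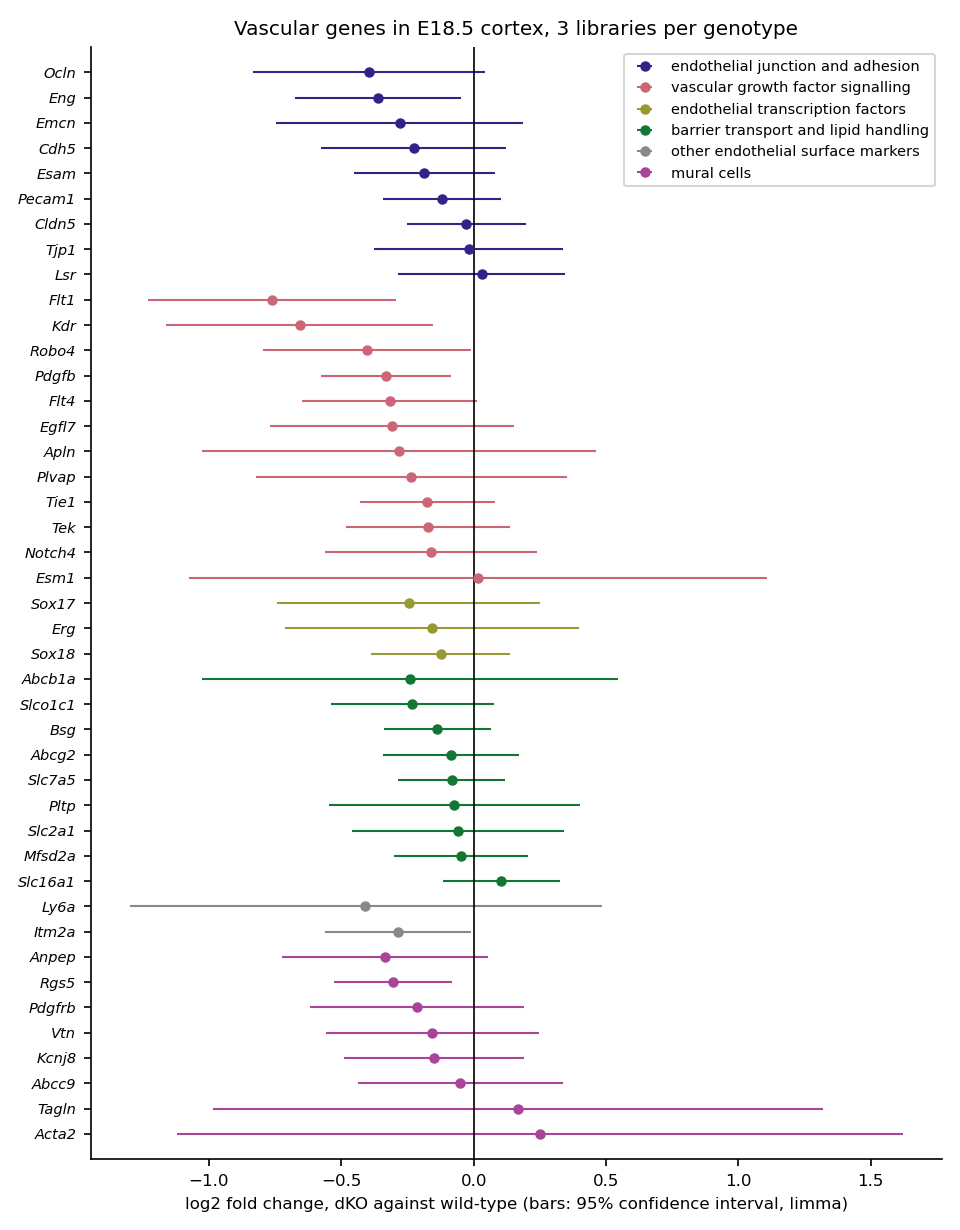
Log2 fold change of the 43 tested vascular genes between dKO and wild-type cortex, with 95% confidence intervals from limma and coloured by role. *Flt1* at -0.76 and *Kdr* at -0.66 lie farthest below 0, while the barrier transporters lie between -0.24 and 0.11.

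The count of 7 depends on single libraries. It was 11 without wild-type replicate 2 and also 11 without dKO replicate 2, but 3 without wild-type replicate 3 and 2 without dKO replicate 3. All of these were lower in dKO cortex. The share of all features lower by that rule moved as well, to 8.51%, 7.46%, 3.94% and 4.08% in the same order. The median log2 fold change stayed below 0 in each of these fits and lay between -0.27, with wild-type replicate 2 removed, and -0.11, with dKO replicate 3 removed.

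By level per length, the set spans endothelial cells and broader sources. In wild-type cortex *Bsg* had 10560 normalized counts per kilobase of merged exons. It encodes basigin, a partner protein of lactate carriers that many cell types make. *Slc7a5*, a carrier of large neutral amino acids that is also not confined to vessels, followed with a level of 2112 per kilobase. *Cldn5* and *Rgs5*, the leading endothelial and pericyte genes here, had levels of 1913 and 1391 per kilobase. The tested gene with the lowest level was *Esm1*, a marker of the tip cells of growing vessels, with 6.5 per kilobase and 8 reads in its lowest library.

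The genes of vascular growth factor signalling, which are receptors, ligands and other proteins of vessel growth, included the largest differences. The 12 tested had a median log2 fold change of -0.30, with 11 below 0, 4 of them (33.3%) at an unadjusted *P*-value under 0.05 and 2 (16.7%) without overlap between the genotypes, against 6.58% and 8.48% of all features. The 4 became 2 without wild-type replicate 3 or without dKO replicate 3. *Flt1* (GSMG0031379, chromosome 5 from 147561606 to 147726013 in the mm10 build) encodes VEGF receptor 1, which binds VEGF tightly and as a soluble form limits its supply. It had 729, 504 and 857 normalized counts in the wild-type libraries and 388, 507 and 326 in the dKO libraries. Wild-type replicate 2 lay just under dKO replicate 2, and the other libraries were separated by genotype. The means were 696 ± 179 and 407 ± 92.1 (SD, n = 3 each), so that 58.5% of the wild-type level remained (log2 fold change -0.76, standard error 0.21, adjusted p = 0.305 from limma). Over the fits that drop 1 library, the log2 fold change ran from -0.98 without wild-type replicate 2 to -0.60 without wild-type replicate 3, and it was -0.69 without both libraries numbered 1. DESeq2 gave an adjusted *P*-value of 0.0241, while limma with 1 library dropped gave 0.0938 to 0.739.

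*Kdr* (GSMG0030642, chromosome 5 from 75932837 to 75978461) encodes VEGF receptor 2, the main signalling receptor for VEGF in endothelial cells. Its values were 473, 336 and 548 normalized counts in wild-type libraries against 352, 305 and 205 in dKO libraries. Only wild-type replicate 2 and dKO replicate 1 crossed over. The log2 fold change was -0.66 ± 0.23 (SE, limma adjusted p = 0.363) and shrank to -0.43 without dKO replicate 3. *Flt4*, the receptor for VEGF-C, had 326, 358 and 313 normalized counts in wild-type libraries against 296, 282 and 225 in dKO libraries, with no overlap (log2 fold change -0.32, standard error 0.15, adjusted p = 0.446 from limma), and was at -0.20 without dKO replicate 3.

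Upstream sequences of these receptors are shown beside that of *Cldn5*, since the first pair had the largest differences of the set and *Cldn5* one of the smallest. ETS family factors such as ERG, which maintain endothelial gene expression, bind sites with a GGAA core. The letters AGGAAG and GGAAGT were searched on both strands in the RefSeq windows from 250 bases before to 50 bases after each gene start (GRCm38.p6, the assembly of mm10). The motifs share 5 letters, so that AGGAAGT counts for both. Of the 45 genes, 32 matched a window, 39 windows in all. AGGAAG was in 43.6% of them and in 35.4% of all 32851 windows, and GGAAGT in 28.2% and 23.8%. ACGTG, the core of hypoxia response elements, was in 12.8% and 19.6%. The 250 bases before the start, 5′ to 3′ on the strand of the gene with AGGAAG and GGAAGT in capitals, are given for *Flt1* (minus strand, chr5:147726012-147726261), *Kdr* (minus strand, chr5:75978456-75978705) and *Cldn5* (plus strand, chr16:18776597-18776846).
Flt1: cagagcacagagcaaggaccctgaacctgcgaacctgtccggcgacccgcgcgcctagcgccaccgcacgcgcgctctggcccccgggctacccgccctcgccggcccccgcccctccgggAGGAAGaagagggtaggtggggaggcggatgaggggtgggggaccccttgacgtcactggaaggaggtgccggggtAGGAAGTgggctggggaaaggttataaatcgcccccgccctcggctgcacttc
Kdr: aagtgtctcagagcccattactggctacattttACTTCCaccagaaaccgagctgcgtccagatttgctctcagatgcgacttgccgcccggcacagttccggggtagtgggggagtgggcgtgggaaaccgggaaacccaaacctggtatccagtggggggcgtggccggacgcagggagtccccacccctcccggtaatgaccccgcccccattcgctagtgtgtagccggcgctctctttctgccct
Cldn5: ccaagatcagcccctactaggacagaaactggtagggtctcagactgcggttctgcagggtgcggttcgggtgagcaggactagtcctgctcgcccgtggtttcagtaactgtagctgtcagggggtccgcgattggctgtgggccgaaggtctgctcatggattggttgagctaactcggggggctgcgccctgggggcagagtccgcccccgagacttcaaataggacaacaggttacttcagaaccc
The *Flt1* stretch holds AGGAAG at 2 places and GGAAGT at 1, the *Kdr* stretch holds GGAAGT at 1 place on the other strand, and the *Cldn5* stretch holds neither. In all, windows of 14 members held AGGAAG and windows of 9 held GGAAGT. Among these were *Abcg2* and *Lsr*, with log2 fold changes of -0.09 and 0.03, and *Eng* and *Robo4*, with -0.36 and -0.40. A relation of the motifs to the differences was not tested. A match is a stretch of letters and no measured binding.

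The other genes of vessel growth were closer to their wild-type level than *Flt1* and *Kdr*. *Robo4*, an endothelial receptor that stabilises vessels, had a log2 fold change of -0.40 ± 0.18 (SE, limma adjusted p = 0.423), with 264, 217 and 280 normalized counts in wild-type libraries against 202, 218 and 157 in dKO libraries. dKO replicate 2 lay just above wild-type replicate 2, and the log2 fold change was -0.26 without dKO replicate 3. *Tek* and *Tie1*, which encode the angiopoietin receptor and its partner, had log2 fold changes of -0.17 and -0.18 with overlapping genotypes. *Egfl7* and *Notch4* had -0.31 and -0.16, both with overlap. The span listed for *Notch4* also covers genes of the neighbouring histocompatibility region, so its reads are less certain. Spans of *Cdh5*, *Eng*, *Egfl7*, *Esm1*, *Pdgfb*, *Plvap*, *Bsg*, *Abcb1a*, *Pltp*, *Abcc9* and *Tagln* also hold other named features, such as *Fpgs* in that of *Eng*, and the strand setting of the counting is unknown. *Apln*, the tip cell ligand apelin, varied widely, with 543, 473 and 846 normalized counts in wild-type libraries against 327, 767 and 481 in dKO libraries. An unnamed feature (GSMG0021322) at the position of *Aplnr*, the apelin receptor, looked up after it was seen that the symbol was missing, had 267, 264 and 207 against 248, 183 and 173 normalized counts, again with overlap. *Plvap*, which forms the diaphragms of fenestrated and immature endothelium and is low once the barrier is set, had 59.9, 50.5 and 62.2 normalized counts in wild-type libraries against 57.2, 49.1 and 40.6 in dKO libraries.

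**Figure D2:**
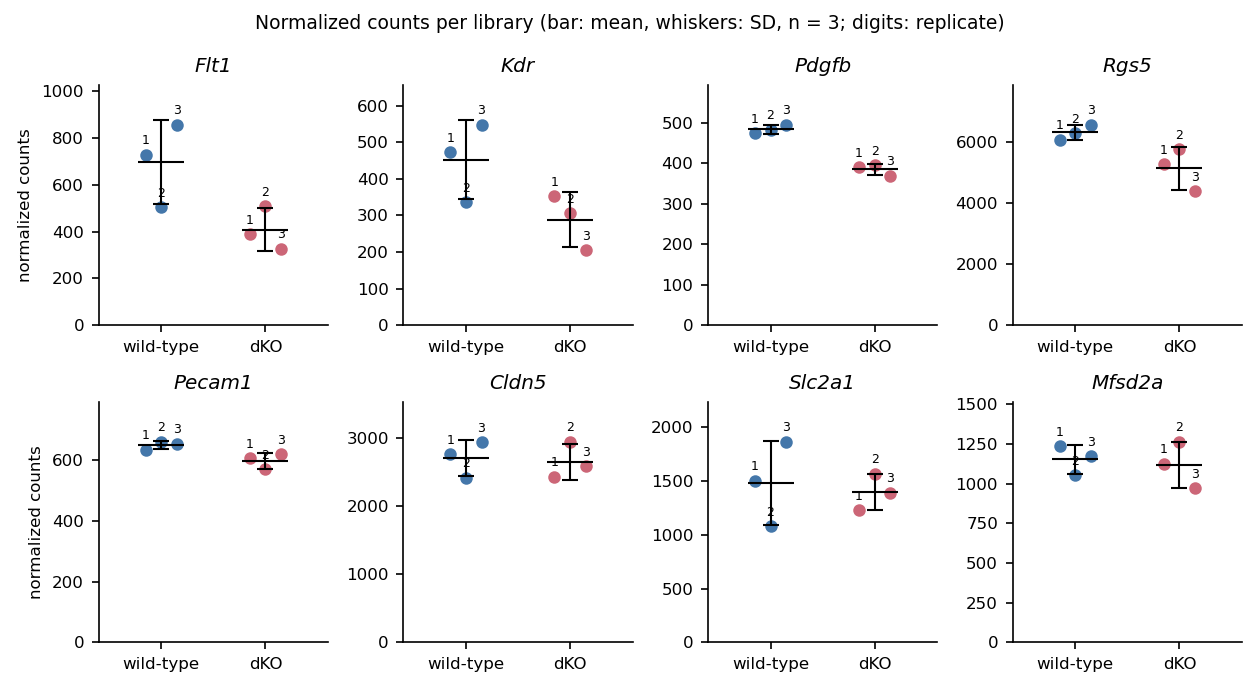
Normalized counts of 8 vascular genes in each library, with mean and SD per genotype (n = 3) and the replicate number above each point. *Pdgfb*, *Rgs5* and *Pecam1* do not overlap between the genotypes, *Flt1* and *Kdr* overlap through wild-type replicate 2, and *Cldn5*, *Slc2a1* and *Mfsd2a* overlap widely.

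*Pdgfb* (GSMG0014263, chromosome 15 from 79995900 to 80014808), the endothelial ligand that recruits pericytes, varied little within each genotype. Its wild-type values were 475, 483 and 496 normalized counts and its dKO values 390, 395 and 370. All dKO libraries lay below all wild-type libraries, and 79.5% of the wild-type level remained (log2 fold change -0.33, standard error 0.11, adjusted p = 0.357 from limma; exact two-sided permutation p = 0.1, the smallest that 3 against 3 allow). Dropping any 1 library moved it only between -0.35 and -0.30. The gene lies 10.9 Mb from *Khdrbs3*, a targeted gene, and the part of that position in the result was not tested.

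Mural genes were mostly below their wild-type level, apart from the smooth muscle markers. Of the 8, 6 had a log2 fold change below 0, 1 (12.5%) was lower at an unadjusted *P*-value under 0.05, against 6.58% of all features, and 2 (25.0%) lay lower without overlap, against 8.48%. The median was -0.15, and it was -0.06 without wild-type replicate 3 and -0.24 without wild-type replicate 2. *Rgs5* (GSMG0001023, chromosome 1 from 169655499 to 169695813), a regulator of G-protein signalling that marks brain pericytes, had 6083, 6307 and 6582 normalized counts in wild-type libraries against 5280, 5776 and 4390 in dKO libraries. Every dKO library was lower (log2 fold change -0.31, standard error 0.10, adjusted p = 0.355 from limma), and the difference shrank to -0.20 without dKO replicate 3. *Anpep*, a peptidase on the pericyte surface, did not overlap either, with 179, 155 and 167 against 151, 123 and 123 normalized counts. *Pdgfrb* (GSMG0018462), the receptor for PDGF-B, had 615, 422 and 654 in wild-type and 551, 503 and 393 in dKO cortex, where wild-type replicate 2 lay among the dKO libraries (log2 fold change -0.21, standard error 0.18). It was at -0.41 without that library, and at -0.09 and -0.07 without replicate 3 of the wild-type or dKO libraries. *Kcnj8* and *Abcc9*, subunits of the potassium channel of pericytes, had log2 fold changes of -0.15 and -0.05, and *Vtn*, the matrix protein vitronectin, had -0.16. *Acta2* and *Tagln*, the contractile genes of arterial smooth muscle, were low and scattered. *Acta2* had 52.3, 23.6 and 57.0 normalized counts in wild-type libraries against 17.2, 65.9 and 104 in dKO libraries, so its log2 fold change of 0.25 has a 95% interval from -1.12 to 1.62 and turned to -0.28 without dKO replicate 3 and to -0.14 without wild-type replicate 2.

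Junction and adhesion genes were spread between -0.39 and 0.03. The median log2 fold change of the 9 was -0.19, with 8 below 0. *Cldn5* (GSMG0014759, chromosome 16 from 18776846 to 18778262), the main claudin of the endothelial tight junction, had 2762, 2423 and 2943 normalized counts in wild-type libraries against 2436, 2947 and 2586 in dKO libraries, so the highest value was in a dKO library. Its log2 fold change of -0.03 has a 95% interval from -0.25 to 0.20 and changed sign to 0.03 without wild-type replicate 3 or without dKO replicate 1. *Tjp1* and *Lsr*, a junction scaffold and a protein of tricellular contacts that epithelia share, had -0.02 and 0.03. *Ocln*, occludin, had 237, 172 and 222 against 132, 193 and 155 normalized counts (log2 fold change -0.39, standard error 0.20, adjusted p = 0.477 from limma). *Eng*, endoglin, a coreceptor for BMP ligands, had 1067, 863 and 1212 normalized counts in wild-type libraries against 784, 937 and 716 in dKO libraries (log2 fold change -0.36, standard error 0.14, adjusted p = 0.394 from limma), overlapping through dKO replicate 2. *Pecam1*, an adhesion protein of all endothelium, had 634, 661 and 655 against 606, 570 and 621, without overlap but with a log2 fold change of only -0.12 (95% interval from -0.34 to 0.10). *Esam*, another adhesion protein, did not overlap either, at 373, 349 and 358 against 310, 325 and 312. *Cdh5*, the cadherin of endothelial contacts, had 603, 490 and 684 against 606, 460 and 451 (log2 fold change -0.23, standard error 0.16). It was at -0.12 without wild-type replicate 3, -0.15 without dKO replicate 3, and -0.36 without wild-type replicate 2 or dKO replicate 1.

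Transporters and lipid carriers of the barrier were, by median, nearest to their wild-type level in the main fit. None of the 9 tested had an unadjusted *P*-value under 0.05, where 11.5% of all features did. All 9 overlapped between the genotypes, where 16.4% of all features did not. The count under 0.05 was 1, lower in dKO cortex, without wild-type replicate 2, without dKO replicate 2 and with quantile scaling. The median log2 fold change was -0.08. It lay between -0.18 without wild-type replicate 2 and -0.01 without wild-type replicate 1. Without wild-type replicate 2 the endothelial transcription factors were nearer, with a median of -0.14. The 9 include *Bsg* and *Slc7a5*, which are not confined to vessels. *Slc2a1* (GSMG0026997), the glucose transporter GLUT1, had 1504, 1081 and 1865 normalized counts in wild-type libraries against 1230, 1569 and 1393 in dKO libraries, with all dKO values inside the wild-type range (log2 fold change -0.06, 95% interval from -0.46 to 0.34). *Mfsd2a* (GSMG0028313), which imports lysophospholipids with omega fatty acids and suppresses vesicular transport, had 1235, 1055 and 1174 against 1125, 1264 and 973 (log2 fold change -0.05, 95% interval from -0.30 to 0.21). *Slc16a1*, the lactate carrier MCT1, was the only one of the 9 above 0, at 0.11. *Slco1c1*, a carrier of thyroid hormone, had the largest difference among the highly expressed ones, with 1885, 1497 and 2116 against 1496, 1801 and 1370 normalized counts (log2 fold change -0.23, standard error 0.14). The efflux pumps *Abcb1a*, P-glycoprotein, and *Abcg2* had -0.24 and -0.09. *Abcb1a* ranged from 72.0 to 177 within the wild-type libraries alone, and its 95% interval of -1.03 to 0.54 leaves its direction unset. *Slco1a4*, an organic anion carrier that rises later in life, was under the minimum. It had 18, 8 and 20 reads in wild-type and 0, 12 and 0 reads in dKO libraries, where a count of 0 allows up to 3 reads.

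The endothelial transcription factors overlapped between the genotypes. *Sox17*, *Erg* and *Sox18*, which set endothelial and arterial identity, had log2 fold changes of -0.25, -0.16 and -0.12. *Itm2a*, a membrane protein enriched in brain endothelium, had 607, 691 and 776 normalized counts in wild-type libraries against 533, 624 and 539 in dKO libraries (log2 fold change -0.29, standard error 0.12, adjusted p = 0.42 from limma). dKO replicate 2 lay above wild-type replicate 1. *Ly6a* lay between 23.6 and 59.6 normalized counts over the 6 libraries, with a log2 fold change of -0.41 and a 95% interval from -1.30 to 0.48.

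The vascular genes also varied as a group between libraries of 1 genotype. The median deviation of the 43 genes from their 6-library mean was 0.15, -0.09 and 0.24 on the log2 scale in wild-type replicates 1 to 3 and -0.09, 0.00 and -0.22 in the dKO replicates. Wild-type replicate 2 thus had the level of dKO replicate 1 and lay under dKO replicate 2. For the mural genes it was the lowest library of all by this median, at -0.25. The summed level of the mural genes, in which *Rgs5* weighs most, did not overlap. It was 7948 to 9004 normalized counts in wild-type and 6058 to 7700 in dKO libraries.

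**Figure D3:**
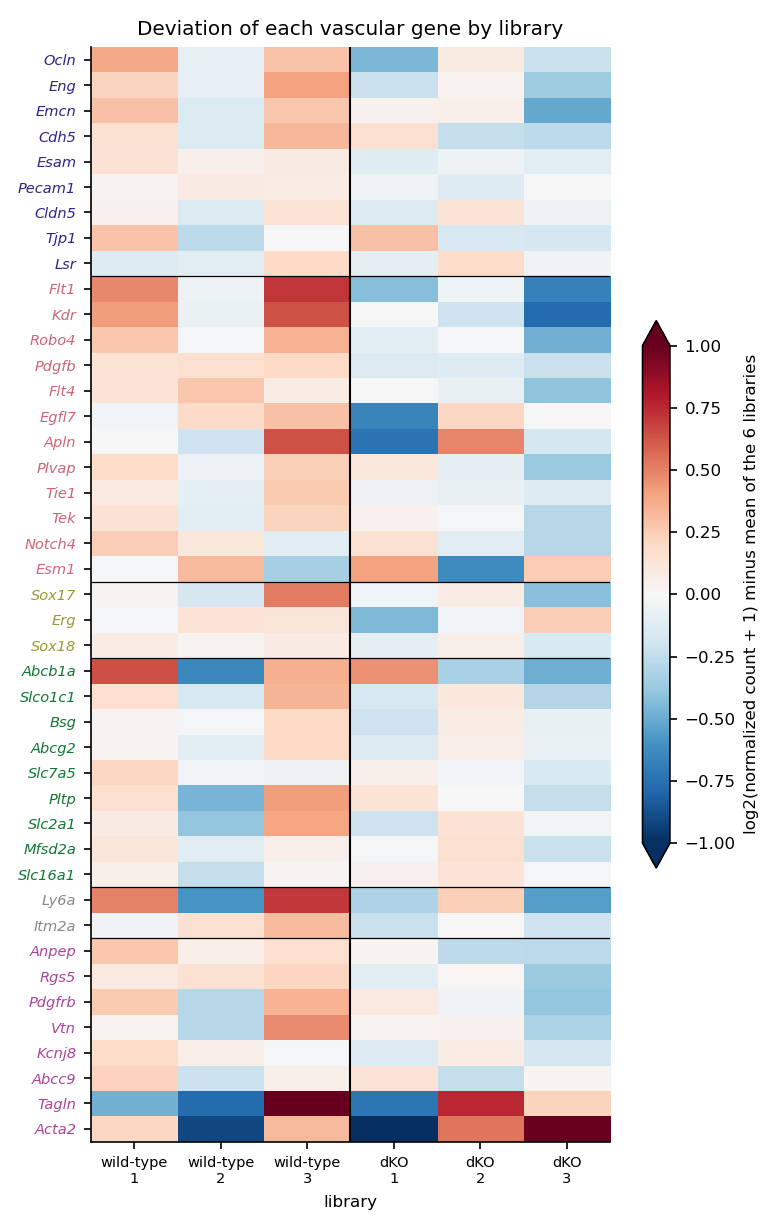
Deviation of each vascular gene from its mean over the 6 libraries, on the scale of log2(normalized count + 1), with genes grouped and coloured by role in the order junction, growth factor signalling, transcription factors, transport, other surface markers and mural. Wild-type replicates 1 and 3 are mostly above the mean, dKO replicate 3 is mostly below it, and wild-type replicate 2 lies between them.

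To set the receptors against the general endothelial level, each library was centred on the mean log2 level of *Cldn5*, *Pecam1*, *Cdh5*, *Tie1* and *Erg*. This scale was chosen after the data were seen. *Kdr*, the remaining defining endothelial marker and the lowest of the 6 at -0.66, was left out of it. The place of *Kdr* on the scale depends in part on that choice. On this scale the median difference of the other 38 genes was -0.06, with 24 below 0. *Flt1* stood at -0.62 and *Kdr* at -0.52, the largest of the 38 in size, and both overlapped between the genotypes (exact two-sided permutation p = 0.2 each). *Pdgfb* remained without overlap at -0.19 and *Slc16a1* lay without overlap above, at 0.25 (exact permutation p = 0.1 each, the smallest possible). *Slc2a1* and *Mfsd2a* stood at 0.08 and 0.09 and overlapped.

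Signals that act on these receptors were compared next. Of 29 angiogenic ligands and further receptors, 19 had a log2 fold change below 0, and 5 of these (17.2%, against 6.58% of all features) and none above 0 had an unadjusted *P*-value under 0.05. The median was -0.09. The 5 became 2 when wild-type replicate 1 or 3 or dKO replicate 1 or 3 was dropped. *Angpt1* (GSMG0013916, chromosome 15 from 42424667 to 42676978), the ligand that activates the receptor encoded by *Tek* and stabilises vessels, had the smallest *P*-value. It had 273, 360 and 295 normalized counts in wild-type libraries against 158, 185 and 146 in dKO libraries. No library crossed over, and the log2 fold change was -0.92 ± 0.17 (SE, limma adjusted p = 0.106, DESeq2 adjusted p = 0.000821), and it lay between -1.01 and -0.80 when any 1 library was dropped. It lies 26.3 Mb from *Khdrbs3*. *Vegfa*, the main ligand of the receptors encoded by *Flt1* and *Kdr*, had 1891, 1730 and 2499 against 1335, 2166 and 1481 normalized counts, overlapping through dKO replicate 2 (log2 fold change -0.31, standard error 0.19). *Pdgfra*, *Slit2*, *Calcrl* and *Vegfd* had log2 fold changes of -0.86, -0.44, -0.66 and -0.85, all with overlap. DESeq2 also called *Pdgfra* (adjusted p = 0.0475), which was at -0.56 without wild-type replicate 1. *Vegfd* was at -0.49 without that library and *Calcrl* at -0.40 without wild-type replicate 3. *Efnb2*, the most abundant of the list, had 0.08.

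The 21 genes of Wnt barrier signalling went in both directions. At an unadjusted *P*-value under 0.05, 4 (19.0%) were lower and 3 higher, against 6.58% and 4.92% of all features. Without overlap, 6 (28.6%) lay below and 3 above, against 8.48% and 7.89%. The median was -0.13, and the 4 lower genes became 0 without wild-type replicate 3 and 1 without dKO replicate 1. *Wnt7b*, the abundant neural ligand, had 10493, 11012 and 11056 normalized counts in wild-type libraries against 11890, 11997 and 14177 in dKO libraries (log2 fold change 0.22, standard error 0.09), and was at 0.14 without dKO replicate 3. Its coreceptors *Lrp5* and *Lrp6* had 0.26 and 0.24, both without overlap. *Ndp*, the gene of norrin, a second ligand of this pathway, had 310, 279 and 335 against 226, 248 and 209 normalized counts, without overlap (log2 fold change -0.44, standard error 0.15). *Nkd1* and *Tnfrsf19* were lower without overlap, at -0.35 and -0.22. After adjustment, limma called 0 of the 21, with a smallest *P*-value of 0.337, and DESeq2 called 0 too.

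Vascular genes outside the set were listed likewise. Among 42 further endothelial genes 36 were below 0 with a median of -0.26. At an unadjusted *P*-value under 0.05, 5 (11.9%) were lower and 1 was higher, against 6.58% and 4.92% of all features. The 5 became 1 without wild-type replicate 3 or dKO replicate 3, 2 without wild-type replicate 1, 3 without dKO replicate 1, 11 without dKO replicate 2 and 12 without wild-type replicate 2. *Slc40a1*, the iron exporter ferroportin, had 321, 343 and 338 normalized counts in wild-type libraries against 260, 202 and 257 in dKO libraries (log2 fold change -0.49, standard error 0.15). *Tfrc*, the transferrin receptor for iron uptake, was the gene on the other side, with 209, 187 and 161 against 310, 213 and 309 (log2 fold change 0.56, standard error 0.19), though erythroid and neural cells make it too. *Cd93* and *Cd34*, surface proteins of endothelium, had -0.39 and -0.32. Of 20 further mural genes 16 were below 0, with a median of -0.30, 2 lower and 1 higher at an unadjusted *P*-value under 0.05. *Heyl* and *Ednra* were the lower ones, at -0.38 and -0.46, and *Myh11*, smooth muscle myosin, was the higher one. It had 13.3, 27.9 and 10.5 normalized counts in wild-type libraries against 23.6, 39.7 and 71.9 in dKO libraries, and the genotypes overlapped. Of 17 basement membrane genes 15 were below 0, with a median of -0.18. Of the 17, 4 (23.5%) were lower at an unadjusted *P*-value under 0.05, against 6.58% of all features. That count was 1 without wild-type replicate 1 or 3 or dKO replicate 3, 2 without dKO replicate 2 and 7 without wild-type replicate 2. *Nid2*, nidogen 2, had 741, 605 and 849 against 579, 523 and 460 normalized counts, without overlap (log2 fold change -0.48, standard error 0.14). *Col4a1*, *Col18a1* and *Lama2* had -0.33, -0.41 and -0.47, with overlap. *Col4a1* was at -0.21 without wild-type replicate 1 and *Lama2* at -0.25 without dKO replicate 3. After adjustment, limma called 0 genes of these 3 lists, with a smallest *P*-value of 0.323, and DESeq2 called 0 too.

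**Figure D4:**
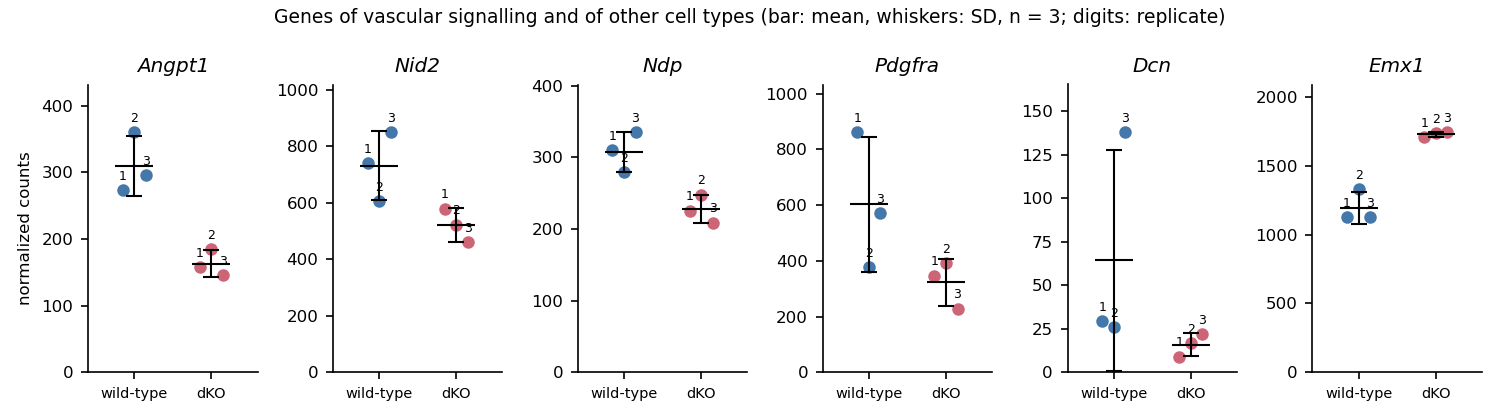
Normalized counts per library of *Angpt1*, *Nid2*, *Ndp*, *Pdgfra*, *Dcn* and *Emx1*, with mean and SD per genotype (n = 3) and replicate numbers. *Angpt1*, *Nid2*, *Ndp* and *Dcn* are lower and *Emx1* is higher in every dKO library.

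Markers of other cell types were compared between the same libraries. Meningeal fibroblasts are the cells of the membranes through which vessels enter the cortex. Of their 16 tested genes 15 were below 0, against 49.4% of all features, and the median was -0.72. Of the 16, 5 (31.2%) were lower at an unadjusted *P*-value under 0.05, against 6.58% of all features. Without wild-type replicate 3 the count was 2 genes and the median -0.41. Their median deviation was 0.28, -0.07 and 0.93 in wild-type and -0.33, -0.13 and -0.55 in dKO replicates, without overlap, and their summed level was 1684 to 3395 in wild-type and 1503 to 1743 normalized counts in dKO cortex, with overlap. *Dcn*, decorin, had 29.5, 25.8 and 138 against 9.1, 16.7 and 22.04 normalized counts. The summed level of 12 projection neuron genes was 246867 to 272899 in wild-type and 275924 to 315249 in dKO cortex, without overlap, and 9 of the 12 were above 0 with a median of 0.21. Their median deviation overlapped, at -0.02, -0.02 and -0.19 in wild-type and 0.26, -0.14 and 0.11 in dKO replicates. Of the 12, 5 (41.7%) were higher at an unadjusted *P*-value under 0.05, against 4.92% of all features. That count was 2 without wild-type or dKO replicate 1 and 7 without dKO replicate 2. *Emx1*, a transcription factor of the dorsal cortex, had 1127, 1329 and 1125 against 1706, 1734 and 1740 normalized counts (log2 fold change 0.54, standard error 0.09, adjusted p = 0.09 from limma and 0.000515 from DESeq2). Summed levels of 14 radial glia and astrocyte genes, of 14 microglia and macrophage genes, of 6 erythroid genes and of 5 choroid plexus genes overlapped. They ran from 42296 to 57682, from 3357 to 5125, from 26447 to 34980 and from 110 to 236 normalized counts in wild-type, and from 43080 to 55634, from 3575 to 4283, from 28923 to 38542 and from 74.4 to 190 in dKO cortex. Their medians were -0.12, -0.04, 0.20 and -0.60. The part of these cell types in the vascular differences was not tested.

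**Figure D5:**
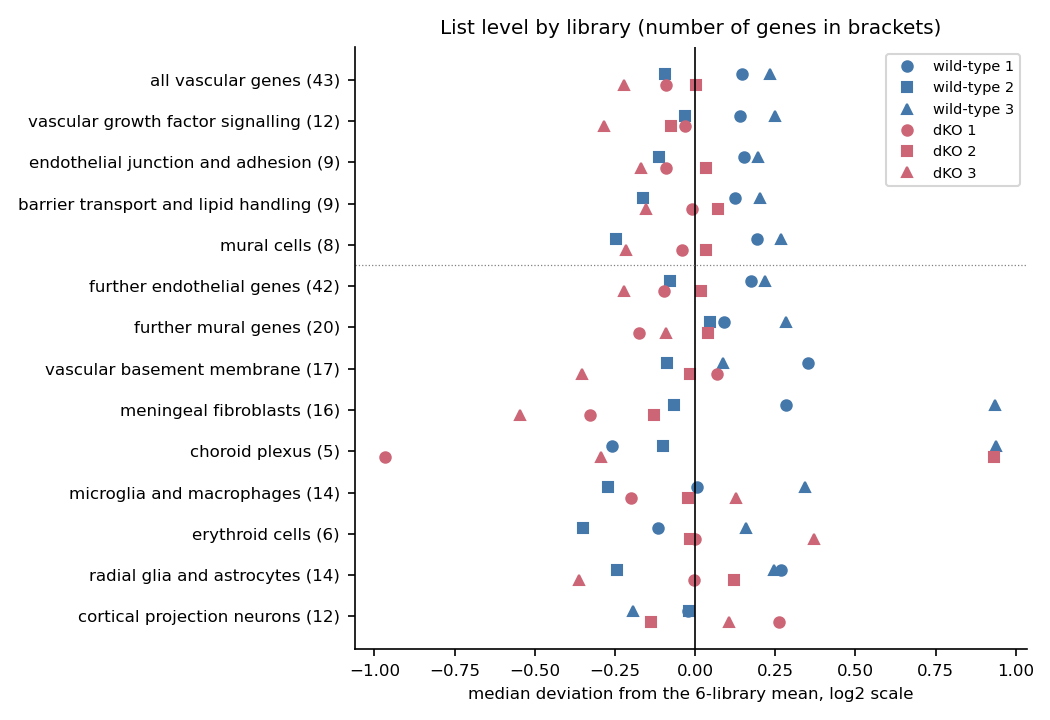
Median deviation from the 6-library mean, on the log2 scale, of the vascular genes, their main roles and lists of other genes in each library, with the number of genes in brackets. Meningeal genes are lower in every dKO library. Further mural genes are too, but only just, at 0.047 in wild-type replicate 2 and 0.039 in dKO replicate 2. Wild-type replicate 2 lies at or below a dKO library in most other vascular lists, and the choroid plexus list spreads widely within each genotype.

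Deviations also followed transcript length in some libraries. The Spearman correlation across 13978 genes between a library's deviation and merged exon length was 0.22 in wild-type replicate 1 and 0.31 in dKO replicate 1, and between -0.22 and -0.10 in the other libraries, a description across genes, which are not independent replicates. Without both libraries numbered 1, 37 of the 43 vascular genes were below 0, with a median of -0.18, and *Flt1* and *Kdr*, whose merged exons are 13504 and 9030 bases long, had log2 fold changes of -0.69 and -0.78. *Ly6a*, *Mfsd2a*, *Slc2a1* and *Tie1* lie 5.89, 6.74, 10.6 and 11.2 Mb from a targeted gene, and the part of their position was not tested.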

How the data were processed

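The authors sequenced polyA+ RNA as 150 bp paired ends, and GenoSplice quantified it against FAST database genes. The deposited signal values, made by the authors, are read counts per gene scaled by library size factors. The submitters' processing notes name STAR 2.7.5a, SAMtools, Picard, FastQC, DESeq2 and the build mm10. The counting program and strand setting are not given in the sources used here. Taking the smallest value of a library as 1 read, 100.0% of its positive values came out whole (within 0.01), and these reads were used for edgeR and DESeq2. Features without a symbol held 8.48% to 9.62% of the reads and stayed in the tests. All 44 members overlap the GENCODE M21 gene of their name, and merged exon lengths come from there.

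Samples were grouped by their titles. The main fit was limma 3.58.1 (trend and robust, R 4.3.3) on log2(normalized count + 1), keeping features whose mean reached 10, with Benjamini-Hochberg adjustment at 0.05. Fold changes on this scale understate the change of low genes. Single values were compared by exact permutation tests in scipy 1.17.1. Intervals and errors cover these 6 libraries only. Alternatives were pseudocounts of 0.1 and 10, other filters, quantile and TMM scaling, limma without trend and robust, edgeR 4.0.16, DESeq2 1.42.0, a replicate block and left-out libraries. The fit was tested on simulated counts. Members and lists were chosen with earlier results of these data known. Genes given per library are members with an unadjusted *P*-value under 0.05 or no overlap, and *Cldn5*, *Pecam1*, *Cdh5*, *Kdr*, *Slc2a1*, *Mfsd2a*, *Abcb1a*, *Plvap*, *Pdgfrb*, *Rgs5* and *Acta2*, with others added for their role after their values were seen. From other lists at most 5 genes with the smallest *P*-values and the most abundant are named, with ligands or markers added likewise. Splicing was not analysed here, and some cortical marker genes are not reported here.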

Additional observations from a re-analysis of the deposited data

How the results depend on the processing

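No vascular gene passed adjustment in any limma or edgeR fit, left-out libraries and the replicate block included. DESeq2 called 1, *Flt1*. The unadjusted count was 7, and it was 5 to 8 in the other alternatives except 3 from limma without trend and robust. Dropping 1 library gave 2 to 11, all lower in dKO cortex except *Acta2* without dKO replicate 1. The cause was not tested. The median log2 fold change stayed below 0 throughout, between -0.27 and -0.11 when 1 library was dropped and between -0.19 and -0.14 in the other fits. Of 339 values of named genes, 325 kept direction and call. Those that changed direction were close to 0 or scattered. With 1 library dropped, *Cldn5* lay between -0.107 and 0.034, *Slc2a1* between -0.268 and 0.125, *Mfsd2a* between -0.139 and 0.05, *Abcb1a* between -0.624 and 0.019 and *Acta2* between -0.279 and 0.986. Without both libraries numbered 1, *Cldn5* gave 0.048 and *Slc2a1* 0.058. Relative to the endothelial reference markers, a scale on which the median was -0.06, *Slc2a1* gave 0.084 and *Mfsd2a* 0.093. Deviations of libraries with the same number correlated at 0.165, -0.353 and -0.136, so the numbers were not taken as pairs. With the replicate block, 5 genes had an unadjusted *P*-value under 0.05, 0 an adjusted one, and the median was -0.18. *Esm1*, *Tagln*, *Acta2* and *Ly6a* have 8 to 21 reads in their lowest library, which limits what can be detected in them.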

Other observations

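Genes induced by low oxygen, a state that also raises VEGF in growing tissue, were set beside the vessels. Of 19 tested, 11 had a log2 fold change below 0 and 8 above, with a median of -0.10, and 1 had an unadjusted *P*-value under 0.05 (11.5% of all features did). That gene was *P4ha1*, a prolyl hydroxylase of collagen, at -0.29 without overlap between the genotypes, and at -0.17 without wild-type replicate 3. Of the 19, 2 (10.5%) lay below without overlap and 1 above, against 8.48% and 7.89% of all features. *Egln1*, a prolyl hydroxylase that acts as an oxygen sensor, was the 1 above, at 0.14. *Ldha*, the most abundant of the list, had -0.16 with overlap. *Slc2a1*, which is also induced by low oxygen, had -0.06.

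Among the microglia and macrophage genes, *Mrc1*, which marks the macrophages along vessels and in the meninges, had the smallest *P*-value. It had 122, 49.4 and 132 normalized counts in wild-type libraries against 45.4, 56.5 and 20.9 in dKO libraries, a log2 fold change of -1.27 ± 0.45 (SE, limma adjusted p = 0.368), overlapping through wild-type replicate 2. *Csf1r*, *Cx3cr1* and *P2ry12*, made by microglia, had -0.16, -0.16 and -0.15. A difference between *Mrc1* and these genes was not tested.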
